A study of Homo sapiens with 6 samples.

Results

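The G2/M and mitosis genes are a list of 37 genes that act from entry into mitosis to exit from it. They were chosen by their known role, with earlier results of these data known. All 37 were named by a probe set of exactly 1 gene, out of 19777 genes named in this way on the arrays. RNA of JJN3, an established human myeloma cell line, was measured on 6 Affymetrix U133 Plus 2.0 arrays, on which each transcript is read by 1 or more probe sets of short oligonucleotides. The cells of 3 arrays expressed a short hairpin RNA (shRNA) directed at CKS1B, and those of the remaining 3 a non-targeting scrambled shRNA. Both groups were virally transduced, so any change due to transduction itself is shared, and no untransduced cells were among these samples. CKS1B binds cyclin-dependent kinases and helps the ubiquitin ligase SCF-SKP2 to recognise the kinase inhibitor CDKN1B (p27), which is then degraded. The labels give no hairpin sequence, no time after transduction and no clone. Titles give the arrays of either group the letters A to C, the order in which per-array values are listed here, and 1 title, that of scrambled array B, has an unexplained extra word. Whether arrays of a group stem from separate cultures is not stated, so p-values reflect only how far these arrays differ from each other, which may be technical.

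Genes of G2 and mitosis are transcribed in a wave late in the cell cycle, and most of their messages are scarce in G1 cells. Cyclin B and CDK1 drive entry, Polo-like and Aurora kinases build the spindle, the checkpoint holds cells until all chromosomes are attached, and the anaphase-promoting complex then releases them by destroying securin and cyclin B. The DREAM complex represses many of these genes in resting cells, and B-MYB with MuvB and FOXM1 activates them in G2. MuvB binds a short promoter element, the cell cycle genes homology region, for which TTTGAA is a common sequence, and NF-Y binds CCAAT elements close to it. In myeloma, such genes mark proliferating disease.

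The 4 promoters printed here belong to members whose groups did not overlap with 6 arrays or without CKS1B shRNA array B, all but DLGAP5, and they show how the elements are placed in genes of the same list. Each line holds the 250 bases before the annotated start, 5′ to 3′ on the gene's strand, with TTTGAA and CCAAT on either strand in capitals. The sequences are from RefSeq on GRCh38.p14, at chr10:60778081-60778330 (plus strand) for CDK1, chr15:40160819-40161068 (plus strand) for BUB1B, chr5:163460382-163460631 (plus strand) for HMMR and chr2:110678064-110678313 (minus strand) for BUB1.
CDK1: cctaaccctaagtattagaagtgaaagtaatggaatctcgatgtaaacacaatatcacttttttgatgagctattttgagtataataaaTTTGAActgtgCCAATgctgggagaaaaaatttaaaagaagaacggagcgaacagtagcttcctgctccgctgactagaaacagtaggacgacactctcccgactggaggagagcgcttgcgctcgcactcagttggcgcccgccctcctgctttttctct
BUB1B: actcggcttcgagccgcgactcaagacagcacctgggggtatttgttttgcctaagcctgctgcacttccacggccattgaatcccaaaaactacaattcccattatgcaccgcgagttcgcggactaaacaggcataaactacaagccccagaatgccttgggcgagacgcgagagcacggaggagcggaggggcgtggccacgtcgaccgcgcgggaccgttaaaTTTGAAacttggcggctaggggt
HMMR: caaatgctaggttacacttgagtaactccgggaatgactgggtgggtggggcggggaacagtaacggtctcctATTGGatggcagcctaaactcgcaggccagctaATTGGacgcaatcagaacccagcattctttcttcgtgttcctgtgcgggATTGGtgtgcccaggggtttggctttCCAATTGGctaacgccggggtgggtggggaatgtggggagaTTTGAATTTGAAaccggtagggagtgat
BUB1: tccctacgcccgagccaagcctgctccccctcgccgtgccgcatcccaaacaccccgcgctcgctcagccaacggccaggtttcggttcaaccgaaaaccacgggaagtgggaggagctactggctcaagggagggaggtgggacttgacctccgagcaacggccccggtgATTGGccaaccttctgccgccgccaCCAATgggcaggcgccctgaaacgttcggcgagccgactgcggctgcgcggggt

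Counting back from -1 at the base before the start, TTTGAA began at position -161 in CDK1, with CCAAT at position -150. In BUB1B it lay at position -23 with no CCAAT in the window. HMMR held it at positions -28 and -22, and BUB1 did not hold it but had CCAAT at positions -79 and -54. A promoter window of 300 bases, from 250 before the start to 50 after it, was given for 31 of the 37 members, all except AURKA, UBE2C, TTK, TPX2, BIRC5 and BUB3. TTTGAA on either strand was found in 19 of the 31 windows (61.3%), against 10.4% of the 10236 windows of genes tested here and 15.4% of all 27305 windows of the table. CCAAT on either strand was found in 24 of the 31 (77.4%), against 3787 of the 10236 windows of genes tested and 35.7% of all. Both motifs were present in 17 of the 31 (54.8%), against 4.45% and 6.08%. The hexamer and CCAAT have different letters, though matches may share bases, as CCAAT and its reverse complement do in HMMR. A match describes letters in a window and not a bound site.

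Levels below are MAS5 values on a linear scale, and differences subtract scrambled shRNA from CKS1B shRNA after taking log2(value + 16), so the change of dim genes is understated. CKS1B, the targeted gene, read 481, 269 and 828 under CKS1B shRNA, against 8266, 8441 and 7294 under scrambled shRNA. The log2 difference was -4.02 (SE 0.44) with an adjusted p of 0.246 in limma over 12663 genes, and -3.63 (SE 0.26) with an adjusted p of 0.00126 when CKS1B shRNA array B was left out. That array stood apart: its Pearson correlation with the other arrays across probe sets was 0.577 to 0.610, against 0.879 to 0.958 among the other 5, and its 3′ to 5′ ratio of actin probe sets, a sign of RNA quality, was 12.4. Next highest was CKS1B shRNA array C at 2.93, followed by scrambled array C at 1.66, and the remaining 3 arrays had 1.05 to 1.15. Of 8 plasma cell and myeloma markers, 7 lay above the filter on low values, which was a mean value of 146. Summed plasma cell markers came to 31399, 15421 and 21311 under CKS1B shRNA, against 31647, 31134 and 24042 under scrambled shRNA. Single markers went both ways on CKS1B shRNA array B. There IRF4, XBP1, TNFRSF17 and MZB1 read lowest of the 6 arrays, and SDC1, PRDM1, CD38 and SLAMF7 highest. Summed T cell markers were 703, 3363 and 873 on the CKS1B shRNA arrays and 630, 911 and 1346 on the scrambled arrays. On CKS1B shRNA array B, CD3D, CD3E and CD2 read highest of the 6 arrays, while CD8A read lowest, at 38.7. Of the other cell types' markers measured, 4 of 4 for T cells, 3 of 5 for stroma, 3 of 4 for epithelium, 1 of 2 for mature B cells and 0 of 3 for monocytes lay above the filter. Its mean includes CKS1B shRNA array B, where CD3D read 1219 and CD3E 1235. On the other arrays CD3D read 41.2 to 539.1 and CD3E 98.7 to 305.9. The mature B cell marker above the filter, MS4A1, read 4578 to 7996. The part of these features in the results was not tested, and each result is given with 6 arrays and with 5, without CKS1B shRNA array B.

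No member passed the adjusted threshold of 0.05 in limma, with 6 arrays or with 5. With 6 arrays, 31 of the 37 members read lower under CKS1B shRNA and 6 higher. Their median log2 difference was -0.56, while 55.7% of all genes tested read lower, with a median of -0.08. The members' differences ran from -1.73 to 0.42 and their adjusted p from 0.933 to 0.996. At an unadjusted p under 0.05 there was 0 of 37 lower (background 1.75% of all genes) and 0 higher (1.19%). Over all genes, 0% passed the adjusted threshold with 6 arrays. CDK1, BUB1B and HMMR were the 3 members with all CKS1B shRNA arrays below all scrambled arrays, a pattern shown by 6.41% of all genes. CDK1 did not show it with a pseudocount of 1 or with the mean of its probe sets. The count was then 2, and the share of all genes was not counted. None showed the opposite pattern, against 4.94% of all genes. The count differed where 1 array was left out: without CKS1B shRNA array A the count was 16 (14.3% of all genes), without scrambled array C it was 13 (11.8%), and the median was -0.80 without CKS1B shRNA array A. Quantile normalization gave 27 lower and 10 higher, against 57.1% lower over all genes, and 9 members without overlap (8.58% of all genes), with 0 at an unadjusted p under 0.05 (1.18%). Centring each array on its median gave 33 lower and left 0 without overlap, where the share of all genes was not counted. Centring also moved the median of all genes to -0.31, and relative to all genes the members' median was -0.48 with or without it. An exact two-sided permutation test of 3 arrays against 3 cannot give a p below 0.1. In bulk RNA, fewer cells in G2 and mitosis and less of these messages per cell cannot be told apart.

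Without CKS1B shRNA array B, 27 of the 37 members read lower and 10 higher, against 53.5% lower over all genes, and the median was -0.27, against -0.04 over all genes. The differences ran from -0.68 to 0.22 and the adjusted p from 0.504 to 0.982. Both remaining CKS1B shRNA arrays were lower than each scrambled array for 5 members, CDK1, BUB1, BUB1B, HMMR and DLGAP5, where 14.4% of all genes did so. No member lay above all 3, against 13.6% of all genes. BUB1 was the 1 member lower at an unadjusted p under 0.05 (background 4.54%), and 0 members were higher (4.95%). Of all genes, 0.0395% passed the adjusted threshold, which were 5 genes. Under quantile normalization of these 5 arrays the split was 33 lower and 4 higher, against 50.8% lower over all genes. There 13 members did not overlap (14.2% of all genes) and 6 were lower at an unadjusted p under 0.05 (4.81%), and the smallest adjusted p in limma was 0.449.

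**Figure D1:**
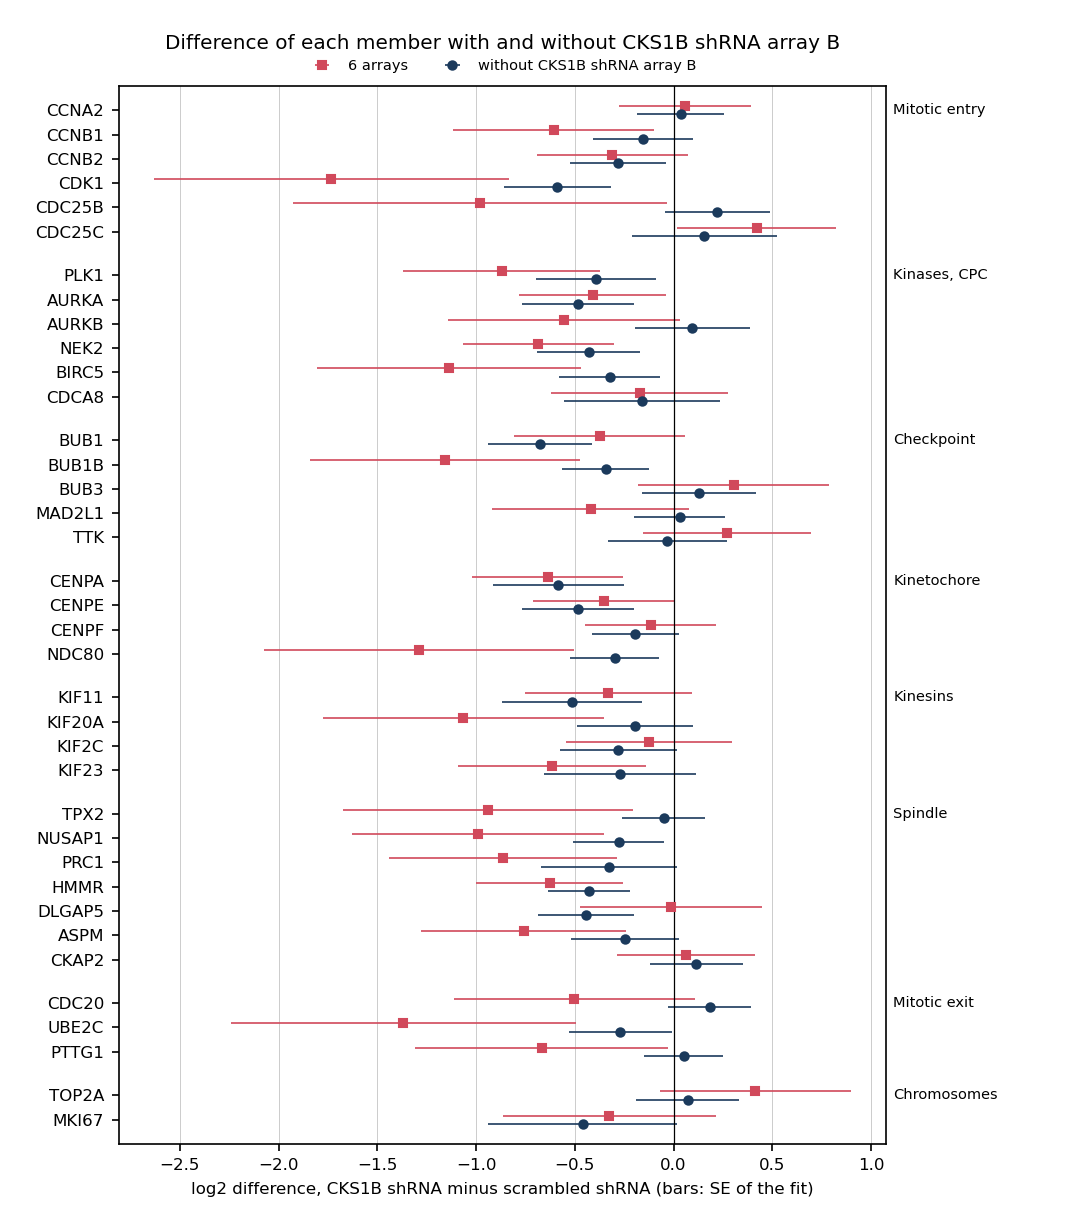
Log2 difference (CKS1B shRNA minus scrambled shRNA, x axis) of each of the 37 members, ordered by role, with its standard error, from 6 arrays and from 5 arrays without CKS1B shRNA array B. With 6 arrays 31 members lie left of 0, and with 5 arrays 27 do, over a narrower range.

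The genes of mitotic entry include the kinase that starts mitosis, its cyclins and the phosphatases that switch it on. Of the 6 members, 4 read lower with 6 arrays (median -0.46) and 3 with 5 arrays (median -0.06). CDK1, the kinase of mitotic entry and the partner of CKS proteins, read 5367, 350.5 and 2892 under CKS1B shRNA, against 6339.6, 5854 and 5622 under scrambled shRNA. Every CKS1B shRNA array lay below every scrambled array, with array A closest to them and array B at 5.9% of the scrambled mean. CDK1 averaged 2869.8 ± 2508 under CKS1B shRNA and 5939 ± 366 under scrambled shRNA (SD, n = 3 each). Its log2 difference was -1.73 (SE 0.90), and -0.59 (SE 0.27) with 5 arrays, where the adjusted p in limma was 0.529. The first value rests on the choice of probe set, since another CDK1 probe set was as bright to 2 decimals (mean log2 value 11.67). With a pseudocount of 1 that one was the brightest and the difference was -0.10, and the mean of the probe sets gave -0.70.

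CCNB1, the B-type cyclin that activates CDK1, read 6012, 1969 and 4282 under CKS1B shRNA, against 6508, 6327 and 4380.2 under scrambled shRNA. The groups overlapped: CKS1B shRNA array A was inside the scrambled range, with array C just below it and array B far below it. CCNB1 had a log2 difference of -0.61 (SE 0.51) with 6 arrays and -0.15 (SE 0.25) with 5, or -0.30 with 6 arrays for the mean of its probe sets. CCNB2, the other B-type cyclin, had -0.31 (SE 0.38) and -0.28 (SE 0.25). CCNA2, the cyclin of S phase and G2, had 0.06 (SE 0.34) and 0.04 (SE 0.22), and its sign turned with the scaling and with the probe set. It was -0.18 under median centring of 6 arrays and -0.06 under quantile normalization of 5. The other CCNA2 probe set past the filter had -0.45 with 6 arrays and -0.55 with 5. By their brightest probe sets, the phosphatases that activate CDK1 differed in sign with 6 arrays but not with 5. CDC25B had -0.98 (SE 0.95) with 6 arrays and 0.22 (SE 0.26) with 5, and CDC25C had 0.42 (SE 0.40) and 0.16 (SE 0.37). The other CDC25C probe set past the filter read lower in both fits, at -0.33 and -1.03.

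**Figure D2:**
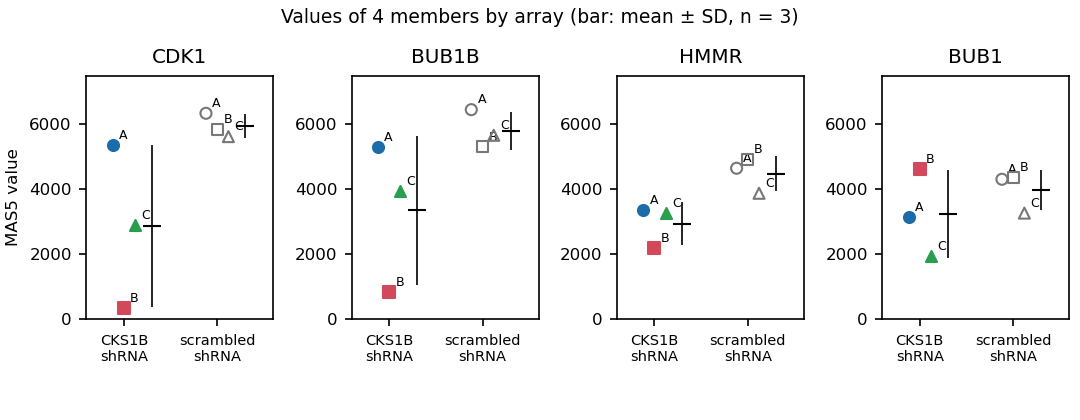
MAS5 values (y axis, linear scale) of CDK1, BUB1, BUB1B and HMMR on each array, with CKS1B shRNA left of scrambled shRNA; points are arrays and bars are group means with SD. CDK1 read 350.5 on CKS1B shRNA array B and 2892 on array C, and BUB1 read 4628 on array B, above the 3 scrambled values.

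Mitotic kinases and the chromosomal passenger complex, which corrects faulty attachments, read lower in 6 of 6 members with 6 arrays (median -0.62) and in 5 of 6 with 5 arrays (median -0.36), with CDCA8 at 0.05 under quantile normalization of 6 arrays. PLK1, the Polo-like kinase of centrosome maturation and spindle assembly, read 2284, 611 and 1224 under CKS1B shRNA, against 2803, 1964 and 1945 under scrambled shRNA. Only array A reached the scrambled range. Its log2 difference was -0.87 (SE 0.50), and -0.39 (SE 0.30) with 5 arrays. NEK2, a kinase that separates centrosomes, read 2166, 1032 and 1432 under CKS1B shRNA, against 2538, 2694 and 1969 under scrambled shRNA. Again arrays B and C lay below all scrambled arrays and array A did not. NEK2 averaged 1543 ± 575 under CKS1B shRNA and 2401 ± 382 under scrambled shRNA (SD, n = 3 each), with log2 differences of -0.68 (SE 0.38) and -0.43 (SE 0.26), or -1.09 with 6 arrays for the mean of its probe sets. The spindle pole kinase AURKA had -0.41 (SE 0.37) with 6 arrays and -0.48 (SE 0.29) with 5. Within the passenger complex the values of the brightest probe sets were nearer 0 with 5 arrays. Its kinase AURKB had -0.56 (SE 0.59) and 0.10 (SE 0.29), its subunit survivin (BIRC5) -1.14 (SE 0.67) and -0.32 (SE 0.25), and borealin (CDCA8) -0.17 (SE 0.45) and -0.16 (SE 0.40). The other BIRC5 probe sets past the filter ran from -0.95 to 0.67 with 6 arrays and from -1.07 to 0.89 with 5. That of AURKB had 0.92 and 0.97.

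The spindle checkpoint delays anaphase until every kinetochore is attached. By their brightest probe sets its 5 members split, with 3 lower under 6 arrays (median -0.37) and 3 lower under 5 (median -0.03). BUB1B, which encodes the checkpoint protein BubR1, read 5292, 825 and 3932 under CKS1B shRNA, against 6451, 5307 and 5662 under scrambled shRNA. The groups did not overlap, but array A lay only just under scrambled array B. For BUB1B the log2 difference was -1.16 (SE 0.68) with 6 arrays and -0.34 (SE 0.22) with 5. BUB1, the kinase that marks centromeres for the passenger complex, read 3133, 4628 and 1935 under CKS1B shRNA, against 4308, 4359 and 3266 under scrambled shRNA. Arrays A and C lay below all scrambled arrays, and array B above all of them. The log2 difference was -0.37 (SE 0.43) with 6 arrays and -0.68 (SE 0.26) with 5, where the adjusted p in limma was 0.504, the smallest of the members. By the other BUB1 probe set past the filter the differences were -0.30 and -0.36, and scrambled array C read lowest of the 6, at 644. BUB3, the partner of both proteins, had 0.30 (SE 0.49) and 0.13 (SE 0.29). MAD2L1, the inhibitor of CDC20, had -0.42 (SE 0.50) and 0.03 (SE 0.23), and the checkpoint kinase TTK had 0.27 (SE 0.43) and -0.03 (SE 0.30). Under quantile normalization of 5 arrays BUB3 stood at -0.09 and MAD2L1 at -0.16. The other BUB3 probe sets past the filter ran from -0.68 to -0.16 with 6 arrays and from -0.34 to 0.16 with 5. Those of MAD2L1 ran from -0.53 to -0.19 with 6 arrays and from -0.79 to -0.52 with 5.

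All 4 kinetochore members read lower in both fits, with medians of -0.49 and -0.39, though CENPF stood at 0.14 under quantile normalization of 6 arrays. CENPA, the histone H3 variant that marks centromeres, read 1876, 1121 and 837 under CKS1B shRNA, against 2222, 1688 and 1792 under scrambled shRNA. Array A lay among the scrambled values and the other two below them, on a probe set with the suffix _x_at, which may bind related transcripts. CENPA had log2 differences of -0.64 (SE 0.38) and -0.58 (SE 0.33). NDC80, the microtubule-binding subunit of the outer kinetochore, read 4329, 451 and 3064 under CKS1B shRNA, against 4607, 4834 and 4046 under scrambled shRNA. Its mean was 2615 ± 1978 under CKS1B shRNA and 4495 ± 406 under scrambled shRNA (SD, n = 3 each), with array B far below the other CKS1B shRNA arrays. The log2 difference was -1.29 (SE 0.79) with that array and -0.30 (SE 0.23) without it. The kinetochore motor CENPE had -0.35 (SE 0.36) and -0.48 (SE 0.28), and the large kinetochore protein CENPF -0.12 (SE 0.33) and -0.19 (SE 0.22).

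The 4 mitotic kinesins, motors that move chromosomes and slide spindle microtubules, also read lower in both fits, with medians of -0.47 and -0.28, though KIF2C stood at 0.12 under quantile normalization of 6 arrays. KIF20A, a kinesin of the central spindle and cytokinesis, read 2188, 251 and 1172 under CKS1B shRNA, against 2090.2, 1910.3 and 1557 under scrambled shRNA. Array A exceeded every scrambled array while B and C lay below them. KIF20A differed by a log2 value of -1.06 (SE 0.71) with 6 arrays and -0.20 (SE 0.29) with 5. KIF23, the motor of the centralspindlin complex, read 1224, 401 and 575 under CKS1B shRNA, against 1319, 1168 and 680.0 under scrambled shRNA, where array C was itself low. It had log2 differences of -0.62 (SE 0.47) and -0.27 (SE 0.38). KIF11, the motor that pushes spindle poles apart, had -0.33 (SE 0.42) and -0.51 (SE 0.35). The microtubule-depolymerising kinesin KIF2C had -0.13 (SE 0.42) and -0.28 (SE 0.30).

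Spindle proteins that bind, bundle or nucleate microtubules formed the largest group, with 6 of 7 lower in both fits and medians of -0.76 and -0.28, though DLGAP5 stood at 0.28 under quantile normalization of 6 arrays. HMMR, a spindle and hyaluronan-binding protein, read 3362, 2181 and 3268 under CKS1B shRNA, against 4647, 4929.5 and 3878 under scrambled shRNA. Each CKS1B shRNA array lay below each scrambled array. HMMR averaged 2937 ± 656 under CKS1B shRNA and 4485 ± 545 under scrambled shRNA (SD, n = 3 each). The log2 difference was -0.63 (SE 0.37), and -0.43 (SE 0.21) with 5 arrays at an adjusted p of 0.543 in limma. By the other HMMR probe set past the filter the differences were -0.56 and -0.80. There the groups overlapped in both fits, with CKS1B shRNA array A at 2416 and scrambled array C at 2282. NUSAP1, which bundles microtubules near chromosomes, read 7007, 1328 and 4930.5 under CKS1B shRNA, against 7274, 7975 and 6239 under scrambled shRNA. Array A lay inside the scrambled range and array B far below it, with log2 differences of -0.99 (SE 0.64) and -0.28 (SE 0.23), or -0.47 with 6 arrays for the mean of its probe sets.

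Among the other spindle members, DLGAP5, a microtubule-stabilising protein, stood at 4882 on CKS1B shRNA array B, against 2418 and 1620.0 on arrays A and C, while the scrambled arrays spanned 2427 to 3039.6. Its log2 difference was therefore -0.01 (SE 0.46) with 6 arrays and -0.44 (SE 0.24) with 5. TPX2, the activator of AURKA on the spindle, showed the reverse, with -0.94 (SE 0.74) and -0.05 (SE 0.21). The midzone bundler PRC1 had -0.86 (SE 0.58) and -0.33 (SE 0.35), and the spindle pole protein ASPM -0.76 (SE 0.52) and -0.24 (SE 0.27). CKAP2, a microtubule-associated protein, was the only one of the 7 above 0 in both fits, at 0.06 (SE 0.35) and 0.12 (SE 0.23), but at -0.17 under median centring.

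Mitotic exit was represented by 3 genes, all lower with 6 arrays (median -0.67) and 1 lower with 5 (median 0.05). UBE2C, the ubiquitin-conjugating enzyme of the anaphase-promoting complex, read 7491, 562 and 4239 under CKS1B shRNA, against 7324, 6824 and 6299 under scrambled shRNA. Array A read above the scrambled range and arrays B and C below it. UBE2C had a log2 difference of -1.37 (SE 0.88) with 6 arrays and -0.27 (SE 0.26) with 5. PTTG1, which encodes securin, the inhibitor of separase, read 7145, 1669 and 7885 under CKS1B shRNA, against 6577, 7725 and 7469 under scrambled shRNA. Array B alone was low, on a probe set with the suffix _x_at, which may also bind close copies of the gene. The log2 difference was -0.67 (SE 0.64) with it and 0.05 (SE 0.20) without it. CDC20, the activator of the anaphase-promoting complex, had -0.50 (SE 0.61) with 6 arrays and 0.18 (SE 0.21) with 5. Under quantile normalization of 5 arrays PTTG1 stood at -0.18 and CDC20 at -0.0029.

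The remaining pair act on the chromosomes. TOP2A, the topoisomerase that untangles sister chromatids, read 6029, 10984 and 4826 under CKS1B shRNA, against 5952, 6043 and 3752 under scrambled shRNA, a log2 difference of 0.41 (SE 0.48) with 6 arrays and 0.07 (SE 0.26) with 5, or -0.11 under quantile normalization of 5. For the mean of its probe sets it was -0.20 with 6 arrays. Array B read highest of the 6 and arrays A and C lay within the scrambled range. MKI67, the Ki-67 proliferation antigen that coats mitotic chromosomes, read 3685, 2718 and 1132 under CKS1B shRNA, against 3942, 3237 and 1758 under scrambled shRNA. Array C was the lowest in both groups, and the groups overlapped. MKI67 had log2 differences of -0.33 (SE 0.54) and -0.46 (SE 0.48).

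**Figure D3:**
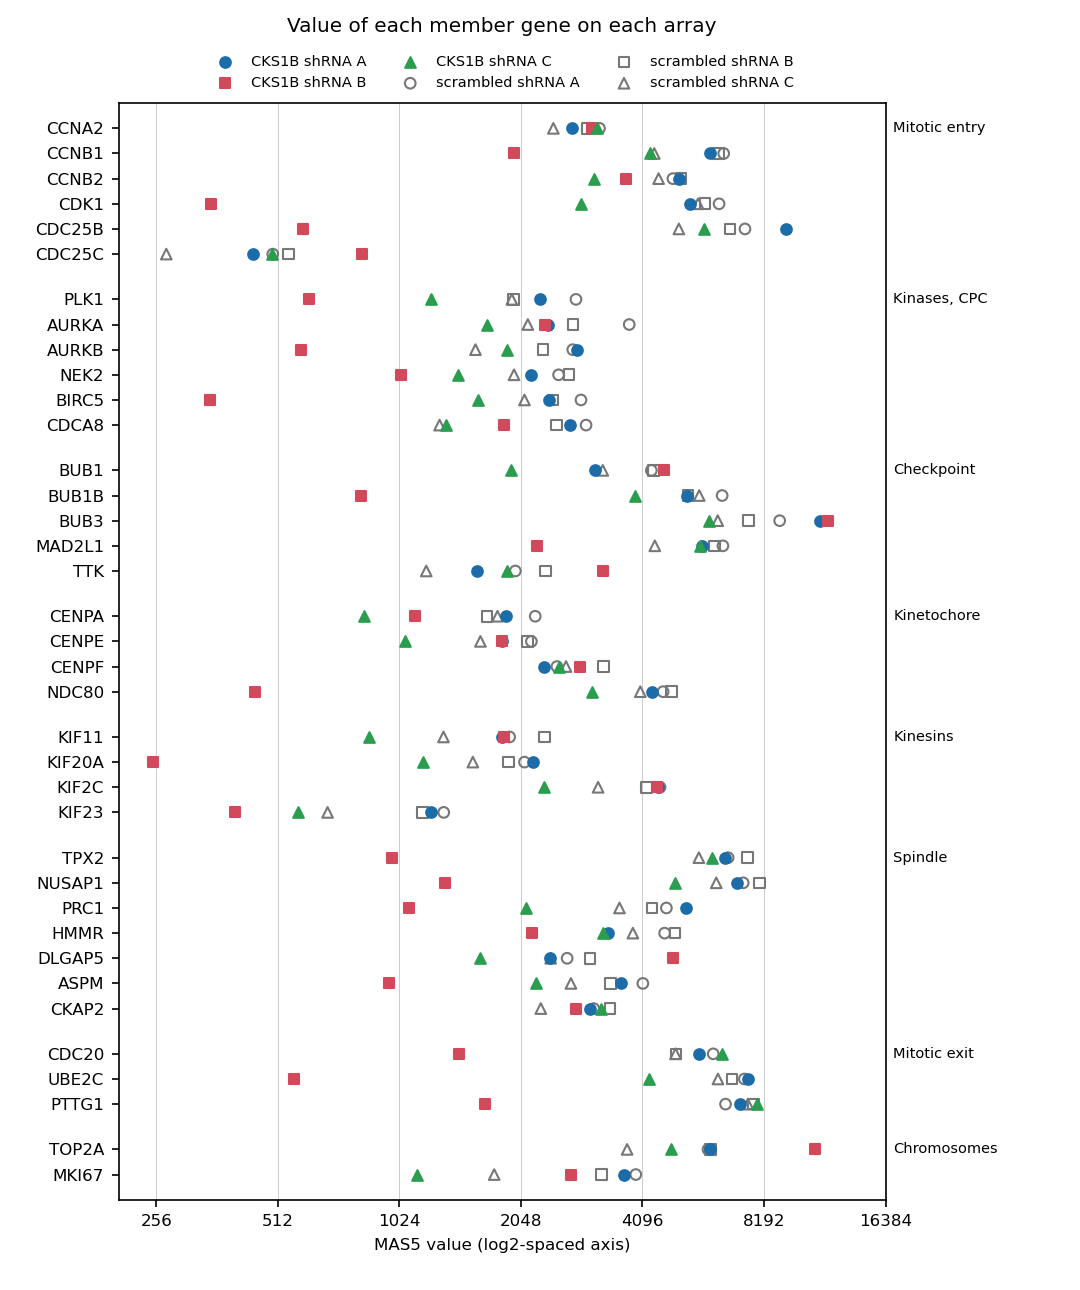
MAS5 value (x axis, log2-spaced) of each of the 37 members (rows, by role) on each of the 6 arrays, with filled markers for CKS1B shRNA and open markers for scrambled shRNA. On CKS1B shRNA array B, 10 members read under 25% of the scrambled mean, while others such as TOP2A, at 10984, read above it; the probe sets differ in brightness, so values are compared along a row and not between rows.

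The 3 CKS1B shRNA arrays did not shift the members alike. Relative to the median of all genes tested, the members' median log2 deviation from the scrambled mean was 0.08 on array A, -1.21 on array B and -0.58 on array C. For the scrambled arrays, each against the mean of the other two, it was 0.27 on A, 0.15 on B and -0.40 on C. On scrambled array C, 36 of the 37 members (97.3%) read below the mean of scrambled arrays A and B, against 48.6% of all genes tested. In the letter C arrays of both groups, lower members thus stood beside the actin ratios of 2.93 and 1.66, while both letter A arrays, at 1.11 and 1.05, had shifts of 0.08 and 0.27. The part of RNA quality in these shifts, and in the values with 5 arrays, was not tested.

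By member, 16 of 37 read below the scrambled mean on CKS1B shRNA array A, 27 on array B and 30 on array C. Those shares were 43.2%, 73.0% and 81.1%, against 53.6%, 49.6% and 51.1% of all genes tested, so on array A the members were below the background. On array A, 6 members (16.2%) lay below all 3 scrambled arrays, against 29.4% of all genes. That share was 24 of 37 (64.9%) on array C, against 30.9% of all genes, and 22 of 37 (59.5%) on array B, against 41.9%. The SD of the deviation among members was 0.23 on array A, 1.43 on array B and 0.43 on array C, in each case less than over all genes tested, at 0.52, 1.56 and 0.65. There, 10 members (27.0%) read under 25% of the scrambled mean, against 13.5% of all genes and 17.2% of the 7745 genes whose scrambled means lay in the members' range of 438 to 7581. On arrays A and C no member did.

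Medians by role on array B describe 1 array and the brightest probe sets only. Relative to all genes, they were -2.12 for exit, -1.80 for spindle and -1.52 for kinases, but 0.22 for the checkpoint and 0.51 for the chromosome pair. On that array, 12 of the 18 members with more than 1 probe set past the filter had probe sets on both sides of the scrambled mean. On array C the medians lay between -0.76 for the kinesins and -0.24 for entry, apart from 0.14 for exit. On array A they lay between -0.09 for the checkpoint and 0.35 for the chromosome pair.

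**Figure D4:**
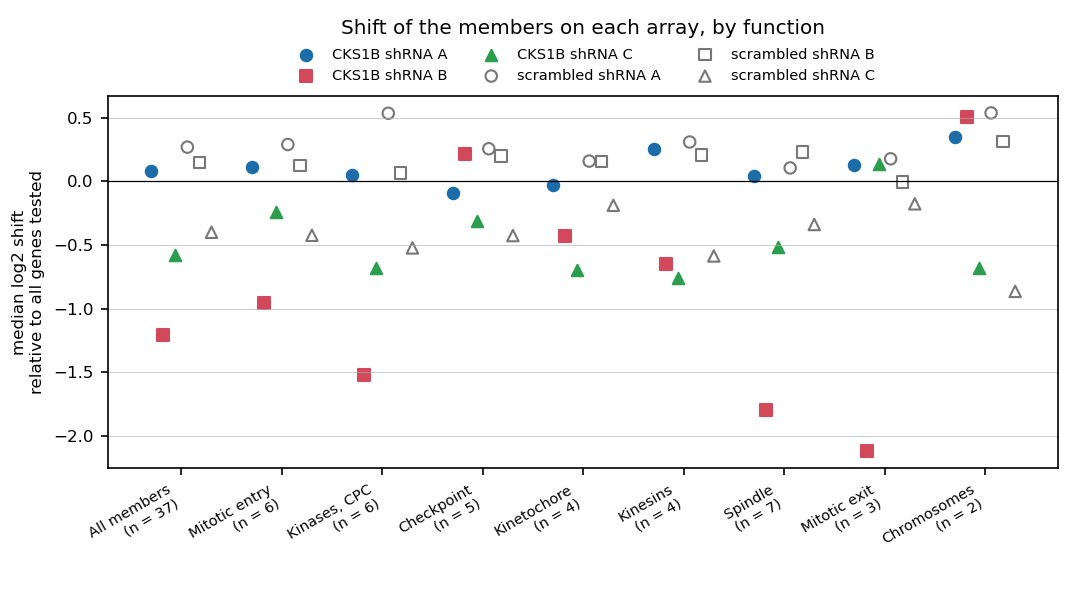
Median log2 deviation of the members and of each role group on each array (y axis), relative to the median of all genes tested; CKS1B shRNA arrays are set against the mean of the 3 scrambled arrays and each scrambled array against the mean of the other two. In order of letters, the members lie at 0.08, -1.21 and -0.58 for CKS1B shRNA and at 0.27, 0.15 and -0.40 for scrambled shRNA.

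Within a letter, the median log2 difference of the members was -0.11 for A, with 28 of 37 lower, against 51.2% of all genes. For B it was -1.37 with 29 lower, against 49.7%, and for C -0.33 with 25 lower, against 53.1%. Under each letter, more than the background share of members read lower. For letter A the comparison is with scrambled array A, where the members' shift was 0.27. Against the mean of the 3 scrambled arrays, 43.2% of members read lower on CKS1B shRNA array A, against 53.6% of all genes.

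Many members were read by more than 1 probe set: 79 probe sets named a member, of which 37 were the brightest of their gene and 42 were others over 21 genes. For 18 genes at least 1 other probe set passed the filter, 45 probe sets in all. The range of a gene's probe sets in log2 deviation had a median of 0.21 on CKS1B shRNA array A, 1.63 on array B and 0.76 on array C. On array B, 12 of the 18 genes had probe sets on both sides of the scrambled mean, where array A had 7 such genes and array C had 9. CDK1 was the widest on array B, at 4.79 log2 units, CDC25C on array A, at 1.57, and BIRC5 on array C, at 3.16.

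CDK1 had 3 probe sets past the filter. Its brightest read 350.5 on CKS1B shRNA array B. Another one, with the suffix _s_at, read 4878 there, against 2956 to 3606 on the scrambled arrays, and the one with the suffix _x_at read 4386 there, against 1755 to 3205. In this order, their log2 differences were -1.73, -0.10 and -0.27 with 6 arrays and -0.59, -0.42 and -0.79 with 5. Suffixes _s_at and _x_at mark probe sets that may bind several transcripts. TOP2A, high on array B by its brightest probe set, read 540.9 there by its _s_at probe set, whose scrambled mean was 3114.

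With 5 arrays, every probe set past the filter read lower under CKS1B shRNA for 8 of the 18 genes, AURKA, BUB1, CDK1, CENPF, HMMR, KIF2C, MKI67 and NEK2. Probe sets disagreed in sign for 9 genes and all read higher for 1. Of the 27 other probe sets past the filter, 21 read lower with 5 arrays (median -0.36) and 22 with 6 (median -0.30), and 16 had the sign of their gene's brightest probe set in either fit.

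**Figure D5:**
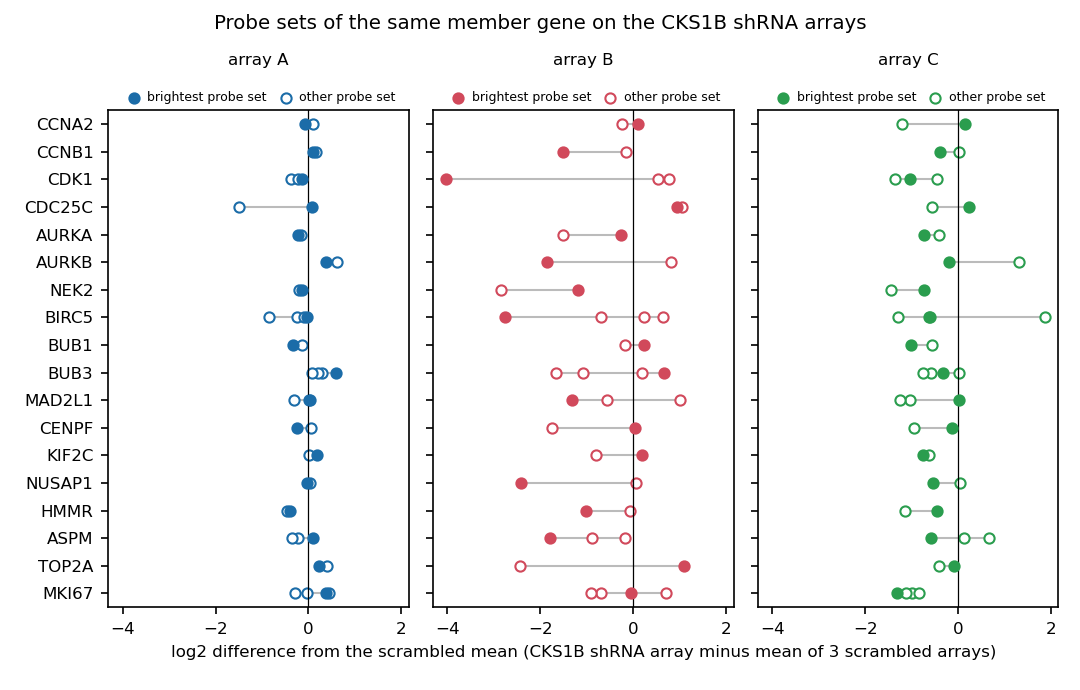
Log2 deviation from the scrambled mean (axis in log2 units) of every probe set past the filter for the 18 members with more than 1, in a panel for each CKS1B shRNA array. Probe sets of a gene lie close together on array A, with a median range of 0.21, and far apart on array B, with a median range of 1.63.

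Members whose promoter window held TTTGAA were set beside those without it, as a description. The 19 with it had a median log2 difference of -0.62 with 6 arrays (18 lower) and -0.30 with 5 (16 lower). The 12 without it had -0.46 (9 lower) and -0.06 (6 lower). Of the promoters printed above, those of CDK1, BUB1B and HMMR held the hexamer. That of BUB1 did not, and BUB1 had the most negative difference of the members with 5 arrays.

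Beyond the members, 94 further genes of mitosis were listed, among them the activators of this transcription wave, condensin, cohesin, other kinesins and subunits of the anaphase-promoting complex. Of these 90 were tested. With 6 arrays 69 read lower (76.7%, against 55.7% of all genes) and 21 higher (median -0.38), and 0 passed the adjusted threshold in limma. Without CKS1B shRNA array B, 64 read lower (71.1%, against 53.5% of all genes) and 26 higher (median -0.23). Again 0 passed in limma, with a smallest adjusted p of 0.460. At an unadjusted p under 0.05 with 6 arrays, 2 of the 90 were lower (background 1.75% of all genes) and 0 higher (1.19%). With 5 arrays 13 of the 90 were lower (background 4.54%) and 0 higher (4.95%).

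KIF15, a kinesin that backs up KIF11, read 916, 675 and 774 under CKS1B shRNA, against 1541, 1504 and 1325 under scrambled shRNA. The groups did not overlap, with log2 differences of -0.88 (SE 0.29) with 6 arrays and -0.78 (SE 0.23) with 5. NCAPG, a condensin subunit, read 1542, 985 and 958 under CKS1B shRNA, against 2668, 2348 and 1526 under scrambled shRNA, where CKS1B shRNA array A lay just above scrambled array C. Its log2 differences were -0.90 (SE 0.37) and -0.80 (SE 0.31). The kinesin KIF18A, which dampens chromosome movement at the metaphase plate, had -1.11 (SE 0.48) and -0.60 (SE 0.30).

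Of the further genes that read higher, those of smallest p were MAD1L1, RAD21 and LIN52. MAD1L1, the checkpoint partner of MAD2L1, read 629.9, 909 and 688 under CKS1B shRNA, against 615, 552 and 364 under scrambled shRNA, a log2 difference of 0.54 (SE 0.33) and, with 5 arrays, 0.39 (SE 0.32). The cohesin subunit RAD21 had 0.56 (SE 0.45) and 0.36 (SE 0.20), with no overlap between the groups. LIN52, a subunit of MuvB, had 0.70 (SE 0.52) and 0.14 (SE 0.32), and read 2316 on CKS1B shRNA array B, against 460.1 to 838 on the scrambled arrays. None of these passed the adjusted threshold.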

How the data were processed

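Total RNA of JJN3 cells was measured on 6 arrays, 3 per group, with groups taken from the labels. Per the submitters' processing notes the authors used MAS5 (version not given in the sources used here), and they deposited an intensity on a linear scale for each probe set. The trimmed mean was 500 on every array, so arrays of different width keep that width. Control probe sets (62 of 54675) were left out. Of the others, 41091 carried 1 gene symbol, 1801 several and 11721 none in the platform annotation, and those with several named no gene. Intensities were transformed as log2(value + 16), probe sets under the 50th percentile of mean log2 value (7.34) were dropped and each gene was read by its brightest probe set over 6 arrays, which left 12663 of 19777 genes and all 37 members.

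Groups were compared over all these genes with limma 3.58.1 in R 4.3.3 (lmFit, eBayes with trend) and the Benjamini-Hochberg adjustment at 0.05, with 6 arrays and, with the same probe sets, without CKS1B shRNA array B. Counts and medians of the list describe it and are no test. The members, roles, further mitosis genes and markers were chosen with earlier results of these data known. All members are named; those given per array are the 2 of smallest p in each role with 6 arrays, those without overlap between the groups, and those at an unadjusted p under 0.05 with 5 arrays; DLGAP5 is given per array after its values were seen. Of the further genes, the 3 of smallest p in each direction are named. Letters in the titles were checked as pairs: deviations from the group means correlated at 0.40 for A, -0.08 for B and -0.08 for C, so the letters were not used as pairs. What they stand for is not stated, so within-letter values and a replicate block are also given. Alternatives tried were a pseudocount of 1 or 64, no filter, a filter at the 70th percentile, median centring, quantile normalization, a replicate block, eBayes without trend, array weights, the mean of probe sets, only probe sets without a shared-sequence suffix, leaving out each array or both of letter B, and quantile normalization or a new choice of brightest probe sets with 5 arrays. Promoter sequences are from RefSeq (GRCh38.p14), matched by gene for 31 of 37 members. The number of arrays limits the precision. Python 3.11.15 with matplotlib 3.10.9 drew the figures.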

Additional observations from a re-analysis of the deposited data

How the results depend on the processing

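Over 727 recomputed differences of single members, 680 kept their direction, 47 reversed, and 0 passed the adjusted threshold in limma under any alternative. Some of the 680 could not reverse. Dropping the filter, the stricter filter, a replicate block and eBayes without trend left each member's difference as in the main fit. Those differences are counted as kept, so the 680 overstates how stable the directions were. Reversals touched 19 members and the other 18 had none. A replicate block, in which arrays of the same letter are paired, cannot change the differences, as each letter has 1 array per group. Only their errors and p-values could move, and 0 members passed the adjusted threshold in limma. The median of the members was -0.79 under median centring, -0.31 with array weights, -0.23 without both arrays of letter B and -0.80 to -0.27 when 1 array was left out; relative to all genes it was -0.48 with 6 arrays, -0.19 without letter B and -0.75 to -0.23 with 1 array left out. Members lower numbered 26 to 34 with 1 array left out, and 19 of the 24 that had a probe set without a shared-sequence suffix. Members without overlap, all lower, numbered 9 under quantile normalization (8.58% of all genes). Under quantile normalization of the 5 arrays they numbered 13 (14.2%) rather than 5 (14.4%). With 1 array left out they numbered 3 to 16, where the count of 16 stood beside 14.3% of all genes. They numbered 2 with a pseudocount of 1 and with the mean of probe sets, 0 under median centring and 5 without letter B. For these last settings the share of all genes was not counted, so the counts are not read as results about the members. Over all genes, array weights called 1 gene higher and 3 lower, leaving out letter B called 1 lower, leaving out 1 array called 0 to 2 higher and 0 to 3 lower, and quantile normalization of the 5 arrays called 1 higher and 1 lower.

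Reversed differences of single members were these, and the cause was not tested. Median centring gave CCNA2 -0.18 and CKAP2 -0.17. Quantile normalization of 6 arrays gave CDCA8 0.047, CENPF 0.14, KIF2C 0.12 and DLGAP5 0.28, and of 5 arrays TOP2A -0.11, CCNA2 -0.056, BUB3 -0.089, PTTG1 -0.18, CDC20 -0.0029 and MAD2L1 -0.16. Array weights gave TOP2A -0.025, CKAP2 -0.029, TTK -0.25, CDC20 0.070, CDC25B 0.062, CCNA2 -0.061 and CDC25C -0.063. Without letter B, CDC25B was 0.27, PTTG1 0.10, CDC20 0.13, TPX2 0.043, MAD2L1 0.10 and AURKB 0.15. The mean of probe sets gave AURKB 0.18, BUB3 -0.20, TOP2A -0.20 and CCNA2 -0.19, and probe sets without a shared-sequence suffix gave CCNB1 0.014. With 1 array left out, the lowest and highest values were -0.44 and 0.35 for DLGAP5, -1.06 and 0.052 for PTTG1, -1.75 and 0.22 for CDC25B, -1.02 and 0.10 for AURKB, -0.031 and 0.48 for TTK, -0.65 and 0.030 for MAD2L1, -0.89 and 0.18 for CDC20, -0.68 and 0.16 for MKI67, -0.28 and 0.18 for KIF2C, -0.56 and 0.032 for KIF11, -0.53 and 0.076 for CDCA8, -0.052 and 0.14 for CCNA2 and -0.10 and 0.18 for CKAP2.

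The limits are few. CKS1B shRNA array B has the lowest correlation with the others and the highest actin ratio, and 2 CKS1B shRNA arrays remain without it. In those fits the spread is estimated mainly from the scrambled arrays. A missed threshold does not show that a member did not differ, and the arrays were scaled by the authors so that a common change of all transcripts could not be seen.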
